A study of Mus musculus with 4 samples.

Results

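The stemness and quiescence transcription factors are the 10 genes Lef1, Tcf7, Satb1, Bach2, Foxo1, Foxo3, Foxp1, Bcl6, Id2 and Id3, chosen by symbol from a table of 18560 genes. All 10 had a line in the table and all 10 passed the filter on low counts, among 12816 genes tested. They were measured by RNA-seq in 4 libraries of mouse spleen CD4+ T cells of the C57BL/6 strain. In 2 libraries (replicates 9 and 12) Setd2, the enzyme that trimethylates lysine 36 of histone H3, was the target of a Cre recombinase under Cd4 control, given in the labels as Setd2-CD4 cre, and 2 libraries (replicates 1 and 6) were wild type. The Cd4 promoter is active in developing T cells of the thymus, also in those that become CD8 cells, so such a deletion comes before activation. Age, sex and whether the wild type cells carried floxed alleles or the Cre are not given in the labels. In both groups, naive cells were activated with antibodies to CD3 and CD28 with no cytokine to steer them, which gives Th0 cells. The stimulation lasted 2 days by the study's design text but 3 days by the sample labels, and the titles carry the number 48. No label says whether the libraries came from separate animals, so every p below measures only the spread between these libraries, which may be technical.

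Most of these factors, though not all, hold T cells in a naive, resting or self-renewing state. TCF-1, encoded by Tcf7, and LEF-1 bind DNA through an HMG box and work with beta-catenin or with TLE corepressors, SATB1 organizes chromatin, and BACH2 and BCL6 are repressors of effector genes. FOXO1 and FOXO3 drive homing and quiescence genes until AKT sends them out of the nucleus, FOXP1 keeps naive cells at rest, and ID2 and ID3 have no DNA-binding domain and block E proteins by pairing with them. Several of these genes, Tcf7 and Lef1 among them, are switched down as activated T cells become effector cells.

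Library depth was 17284613 and 20418766 counts in the knockout libraries and 19663302 and 18748194 counts in the wild type libraries. Setd2 itself stood at 127 and 113 CPM in the knockout libraries, against 157 and 174 CPM in the wild type libraries (CPM, counts scaled to library size with TMM factors, as for every CPM below). A gene-level count sums all exons, deleted or not, so Setd2 did not check the labels. Its log2 fold change was -0.47 (SE 0.21, edgeR adjusted p 0.421), and -0.01 once a trend on gene length across the whole table was removed. The first principal component, with 52.8% of the variance, placed knockout replicate 12 at one end and wild type replicate 6 at the other, with knockout replicate 9 and wild type replicate 1 close together between them. CD4 T cell markers, most of which CD8 cells also express, summed to 2359 and 2316 CPM in knockout and 2729 and 3028 CPM in wild type libraries over the 8 of 9 in the table. Markers of other cells were also present. CD8 transcripts were of the same order as Cd4, with Cd8a at 194 and 136 CPM in knockout and 119 and 147 CPM in wild type libraries and Cd8b1 at 238 and 187 against 141 and 183 CPM, beside Cd4 at 403 and 444 against 464 and 575 CPM. B cell markers, 9 of 9 in the table, summed to 233 and 390 CPM in knockout and 304 and 211 CPM in wild type libraries. CD8 markers, 2 of 2, summed to 432 and 323 against 260 and 330 CPM. Myeloid markers, 9 of 9, summed to 74.5 and 86.3 CPM in knockout and 67.5 and 74.1 CPM in wild type libraries, most of it Cst3. The myeloid genes Lyz2, Cd14, Adgre1 and Clec9a were under 1 CPM in every library. NK markers, 6 of 6, summed to 800 and 723 against 971 and 466 CPM, nearly all of it Gzma, with Ncr1 under 1 CPM throughout. Regulatory T cell markers, 6 of 6, summed to 2879 and 2560 against 3190 and 1968 CPM, nearly all of it Il2ra and Ctla4. Of their more specific markers, Foxp3 stood at 20.5 and 39.4 CPM in knockout and 90.3 and 63.0 CPM in wild type libraries (log2 -1.36, unadjusted edgeR p 0.00497) and Gpr83 at 1.68 and 4.44 against 24.1 and 12.1 CPM (log2 -2.56, unadjusted edgeR p 0.00175). Nrp1 went the other way without overlap, at 9.28 and 8.67 against 5.44 and 6.22 CPM (log2 0.62). Ikzf2 overlapped, at 23.2 and 11.3 against 21.6 and 26.5 CPM. Foxp3 and Gpr83 were below wild type without overlap, as were 5 of the 10 factors and 24.3% of all genes tested. The part of these markers in the factors' values was not tested. Follicular helper markers, 6 of 6, summed to 782 and 994 against 825 and 635 CPM. Erythroid markers, 5 of 5, summed to 2.32 and 7.43 against 6.36 and 20.2 CPM.

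In the libraries labelled Setd2 knockout, 9 of the 10 factors had a lower fitted level and 1, Id3, a higher one, with a median log2 fold change (knockout over wild type) of -0.50. Among all genes tested, 50.2% had a negative log2 fold change and the median was 0. The members were chosen with earlier results of these data known, so contrasts of their counts with all genes are descriptions. Lef1 stood at 48.5% and Satb1 at 62.5% of the wild type level, and Id3 was at 2.52 times that level. Tcf7, Foxo3, Bcl6 and Id2 overlapped between groups, with Bcl6 (log2 -0.05) and Id2 (log2 -0.02) near 0. By edgeR's quasi-likelihood test with Benjamini-Hochberg adjustment, 0 of the 10 members passed an adjusted p of 0.05 in either direction, beside 0.0078% of all genes called higher and 0% called lower. At an unadjusted p under 0.05 edgeR gave 3 members lower (Lef1, Satb1, Bach2), against a background of 5.73% of genes, and 1 higher (Id3), against 6.23%. The 3 became 2 with the length trend removed, where 5.36% of genes were lower. By the unadjusted p of DESeq2 they became 6, but the share of all genes at that p was not counted, so this 6 has no background. DESeq2 called 1 member lower, Lef1, where it called 0.804% of genes lower, and 1 higher, Id3, where it called 0.729% higher, and limma-voom called 0. An exact permutation test could not decide, since 2 libraries against 2 allow no two-sided p under 0.333.

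**Figure D1:**
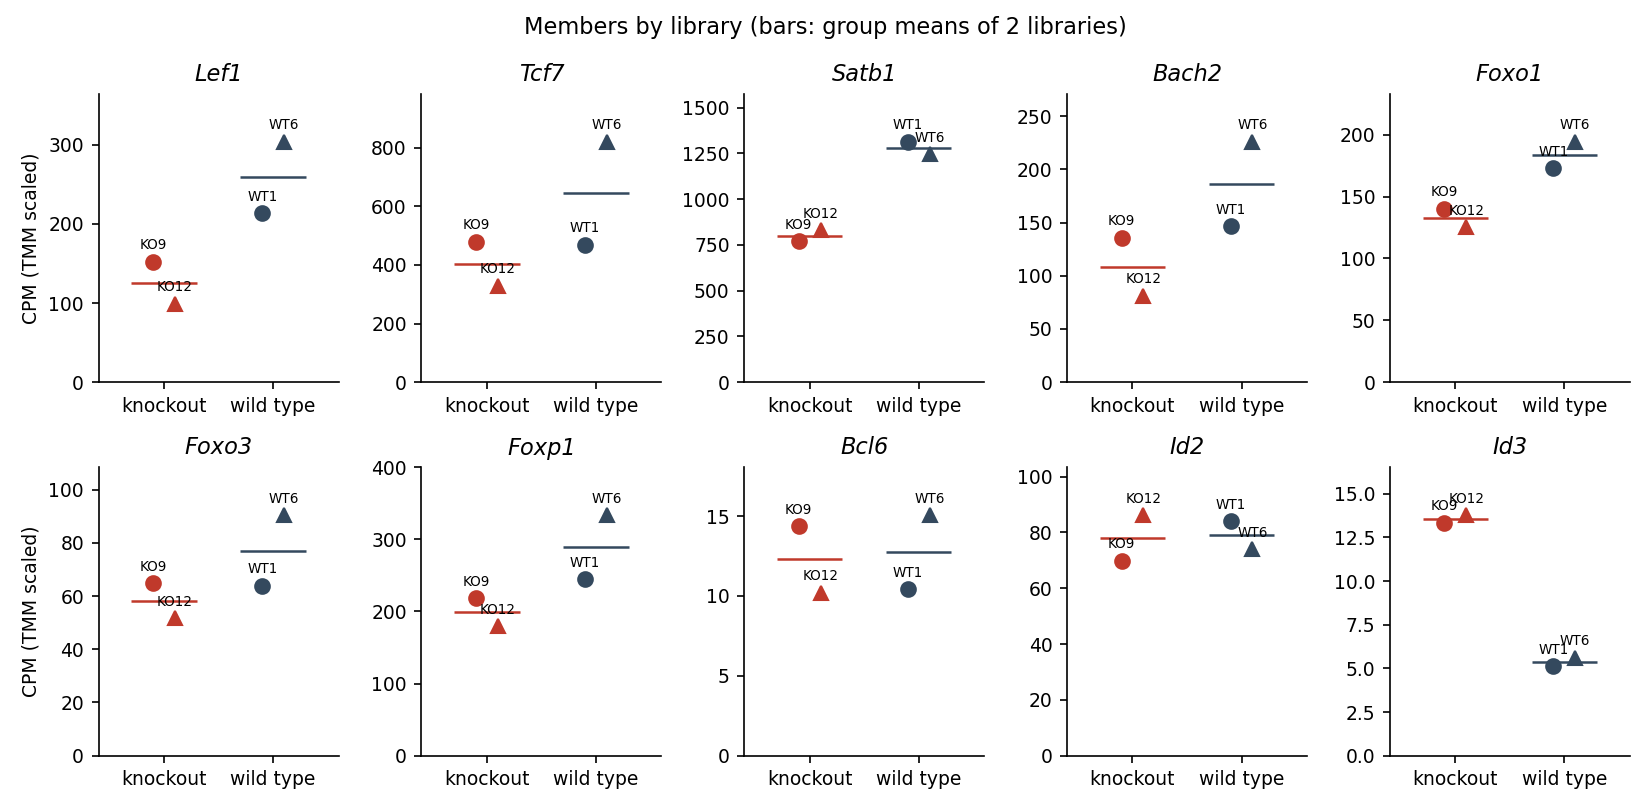
CPM after TMM scaling of each member in each library, on linear axes that start at 0, with knockout libraries on the left, wild type libraries on the right and a line at each mean of 2 libraries. Satb1 and Id3 show tight pairs far apart, with Satb1 at 769 and 831 CPM in knockout and 1314 and 1244 CPM in wild type libraries, whereas Tcf7 and Foxo3 overlap between groups.

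Among the HMG box factors, Lef1 (gene 16842, GRCm38.p6 chromosome 3, 131110297 to 131224357) had 152 and 99.3 CPM in the knockout libraries, against 214 and 304 CPM in the wild type libraries. The 2 groups did not overlap, and each knockout library was under each wild type one. The log2 fold change was -1.04 (SE 0.29) with an edgeR adjusted p of 0.367, and 0.0306 in DESeq2. Tcf7 (chromosome 11, 52246527 to 52283383), which encodes TCF-1, stood at 479 and 330 CPM in knockout and 468 and 821 CPM in wild type libraries. Here the groups overlapped, because wild type replicate 1 was below knockout replicate 9. The Tcf7 log2 fold change of -0.67 (SE 0.32, edgeR adjusted p 0.424) became -0.21 when wild type replicate 6 was left out, -0.43 when knockout replicate 12 was and -1.01 when wild type replicate 1 was. Within a library the ratio of Lef1 to Tcf7 in FPKM, a level per gene length, was 0.329 and 0.321 in knockout and 0.474 and 0.366 in wild type libraries, so the Lef1 share of the pair was lower in both knockout libraries.

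Satb1 (chromosome 17, 51736187 to 51833290), the chromatin organizer, was the most abundant of the 10 in both groups. It stood at 769 and 831 CPM in knockout, against 1314 and 1244 CPM in wild type libraries, and the spread within either pair was small beside the gap. Its log2 fold change was -0.68 (SE 0.20, 95% interval -1.13 to -0.22) with an edgeR adjusted p of 0.384 and a DESeq2 adjusted p of 0.08. By CPM, unlike Lef1 and Tcf7, Satb1 was not highest in wild type replicate 6 or lowest in knockout replicate 12, although by FPKM its highest value was in wild type replicate 6, at 352 FPKM beside 344 FPKM in replicate 1.

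Lef1 and Satb1 were the members lower in both knockout libraries with the smallest p, and their promoters are shown for that reason. Each is the 250 bases before the most upstream of the 4 starts (Lef1) or 5 starts (Satb1) listed by RefSeq for GRCm38.p6, 5′ to 3′ on the gene's strand, at chr3:131110047-131110296 (plus) and chr17:51833291-51833540 (minus). Gene-level counts do not tell which start the cells used.
Lef1: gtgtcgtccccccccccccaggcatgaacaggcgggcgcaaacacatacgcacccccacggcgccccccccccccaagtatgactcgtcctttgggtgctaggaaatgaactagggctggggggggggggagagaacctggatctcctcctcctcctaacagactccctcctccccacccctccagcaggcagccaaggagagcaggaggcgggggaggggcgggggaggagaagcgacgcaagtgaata
Satb1: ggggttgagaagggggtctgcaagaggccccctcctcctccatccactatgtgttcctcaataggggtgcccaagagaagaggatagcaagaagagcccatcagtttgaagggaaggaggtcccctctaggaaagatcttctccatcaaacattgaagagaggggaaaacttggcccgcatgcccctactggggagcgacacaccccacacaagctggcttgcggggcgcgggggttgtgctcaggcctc
Both strands were searched for the TCF and LEF motif CTTTGAT, for the FOXO motif GTAAACA and for CAGGTG, an E-box that E proteins bind. Neither window held any of them, so no base is in capitals. Of all 32851 RefSeq promoter windows of the same length, 3.2% held the TCF and LEF motif, 3.2% the FOXO motif and 17.2% this E-box. The Lef1 window was 66.4% G or C and the Satb1 window 58.0%.

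The ID proteins parted. Id3 (gene 15903, chromosome 4, 136143822 to 136145392) had 13.3 and 13.8 CPM in knockout and 5.13 and 5.61 CPM in wild type libraries, from 230 and 267 counts against 101 and 111 counts. The pairs were tight and far apart, and the log2 fold change was 1.33 (SE 0.29), with an edgeR adjusted p of 0.275 and a DESeq2 adjusted p of 0.0391. Id2 (chromosome 12, 25093799 to 25096092) stood at 69.9 and 86.2 CPM in knockout and 84.0 and 73.9 CPM in wild type libraries, fully overlapping (log2 -0.02, 95% interval -0.52 to 0.49). Id2 stayed the more abundant of the 2 in every library. The ratio of Id3 to Id2 in FPKM was 0.257 and 0.215 in knockout and 0.0819 and 0.102 in wild type libraries, a 2.57-fold difference that does not depend on scaling between libraries.

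Of the repressors, Bach2 (chromosome 4, 32238413 to 32586109), which pairs with small MAF proteins, stood at 136 and 81.4 CPM in knockout and 147 and 226 CPM in wild type libraries. The groups did not overlap, but knockout replicate 9 and wild type replicate 1 lay close, and the log2 fold change of -0.78 (SE 0.32, edgeR adjusted p 0.413) became -0.44 with wild type replicate 6 removed and -0.46 with knockout replicate 12 removed, and -1.20 with knockout replicate 9 removed. Bcl6 (chromosome 16, 23965050 to 23988866), a repressor that drives the follicular helper T cell fate, was the least abundant member by FPKM in both groups. It stood at 14.4 and 10.2 CPM in knockout and 10.4 and 15.1 CPM in wild type libraries, with a log2 fold change of -0.05 (95% interval -0.78 to 0.67). BACH2 and BCL6 are also made by B cells. The B cell marker sum was highest in knockout replicate 12, where Bach2 and Bcl6 were lowest, and lowest in wild type replicate 6, where both were highest, and its part in these values was not tested.

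The forkhead factors had negative fitted log2 fold changes, and none of the 3 reached an unadjusted edgeR p of 0.05 (0.0581 for Foxo1, 0.0572 for Foxp1, 0.145 for Foxo3). Foxo1 (chromosome 3, 52268337 to 52350109) stood at 140 and 125 CPM in knockout and 173 and 194 CPM in wild type libraries, without overlap (log2 -0.47, SE 0.21, edgeR adjusted p 0.419). Foxp1 (chromosome 6, 98925342 to 99522746) stood at 218 and 179 CPM in knockout and 245 and 333 CPM in wild type libraries, also without overlap (log2 -0.54, SE 0.24, edgeR adjusted p 0.417), and its log2 fold change was -0.30 without wild type replicate 6. Foxo3 (chromosome 10, 42181845 to 42276695) stood at 64.8 and 51.6 CPM in knockout and 63.8 and 90.5 CPM in wild type libraries and overlapped (log2 -0.41, SE 0.25). Its log2 fold change was -0.14 without wild type replicate 6, -0.25 without knockout replicate 12 and -0.63 without wild type replicate 1. The ratio of Foxo3 to Foxo1 in FPKM, 0.375 and 0.334 in knockout and 0.299 and 0.403 in wild type libraries, also overlapped.

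Counted over the 10 members, the knockout pair lay wholly below the wild type pair for 5 (Lef1, Satb1, Bach2, Foxo1, Foxp1), where 24.3% of all genes tested did so, and above them for 1 (Id3), where 25.4% did. By CPM, 7 of the 10 were lowest in knockout replicate 12 and 7 highest in wild type replicate 6. The shares of all genes with these extremes were not counted. The first principal component over all genes had the same 2 libraries at its ends, so this is no trait particular to the members. Leaving out any 1 library kept 8 members below 0, and the members' median was lowest, at -0.63, when wild type replicate 1 was left out and highest, at -0.26, when wild type replicate 6 was. GENCODE M21 places exons of other genes over exons of Bach2, Bcl6, Foxo1, Lef1 and Satb1 on the opposite strand, and of Foxp1 and Satb1 on the same strand. Since the counting is not stated to use strand, such reads cannot be told apart from the members'.

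By level per gene length, the order in knockout cells was Satb1 at 204 ± 2.63 FPKM (SD, n = 2 as for all levels in this paragraph), Tcf7 at 150 ± 43.7, Id2 at 60.1 ± 6.68, Lef1 at 48.7 ± 15.1, Foxp1 at 28.6 ± 6.5, Foxo1 at 23.0 ± 2.66, Id3 at 14.1 ± 0.191, Bach2 at 12.2 ± 4.67, Foxo3 at 8.19 ± 1.61 and Bcl6 at 3.50 ± 0.82 FPKM. The neighbours Id2 and Lef1, Foxp1 and Foxo1, Id3 and Bach2, and Bach2 and Foxo3 overlapped between their 2 libraries. In wild type cells Satb1 (348 ± 5.91 FPKM) and Tcf7 (251 ± 105 FPKM) also led, Lef1 (101 ± 25.0 FPKM) stood above Id2 (64.4 ± 3.37 FPKM), and Id3 (5.90 ± 0.615 FPKM) stood second from the bottom, above Bcl6 (3.79 ± 1.08 FPKM). No neighbours overlapped in wild type cells. The order thus differed at Lef1, which stood above Id2 without overlap in wild type cells and overlapped it in knockout cells, and at Id3, which overlapped Bach2 in knockout cells.

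Gene length ran along with the fold changes across the whole table. The median log2 fold change was 0.38 over 939 genes with an effective length up to 1000 bases, 0 over 5023 genes from 2000 to 4000 bases and -0.50 over 375 genes above 8000 bases. Id3 is short (935 bases), Lef1 (2554), Tcf7 (2652) and Satb1 (3813) are of middle length, and Foxo1 (5621), Foxp1 (6433), Foxo3 (6933) and Bach2 (8778) are long. With the length trend removed from each library, the log2 fold changes of the long genes moved toward 0, to -0.36 for Bach2, -0.22 for Foxp1, -0.20 for Foxo1 and -0.05 for Foxo3. Those of the middle-length genes moved little, to -1.09 for Lef1, -0.71 for Tcf7 and -0.56 for Satb1, and Id3 remained higher at 1.02. Id2, with an effective length of 1259 bases, moved from -0.02 to -0.28, and Bcl6 (3463 bases) from -0.05 to 0.01. In that fit 8 of 10 members were below 0, where 50.4% of genes were, and 2 (Lef1, Satb1) were lower at an unadjusted p under 0.05, where 5.36% of genes were. The 1 member higher was Id3, where 6.02% of genes were.

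**Figure D2:**
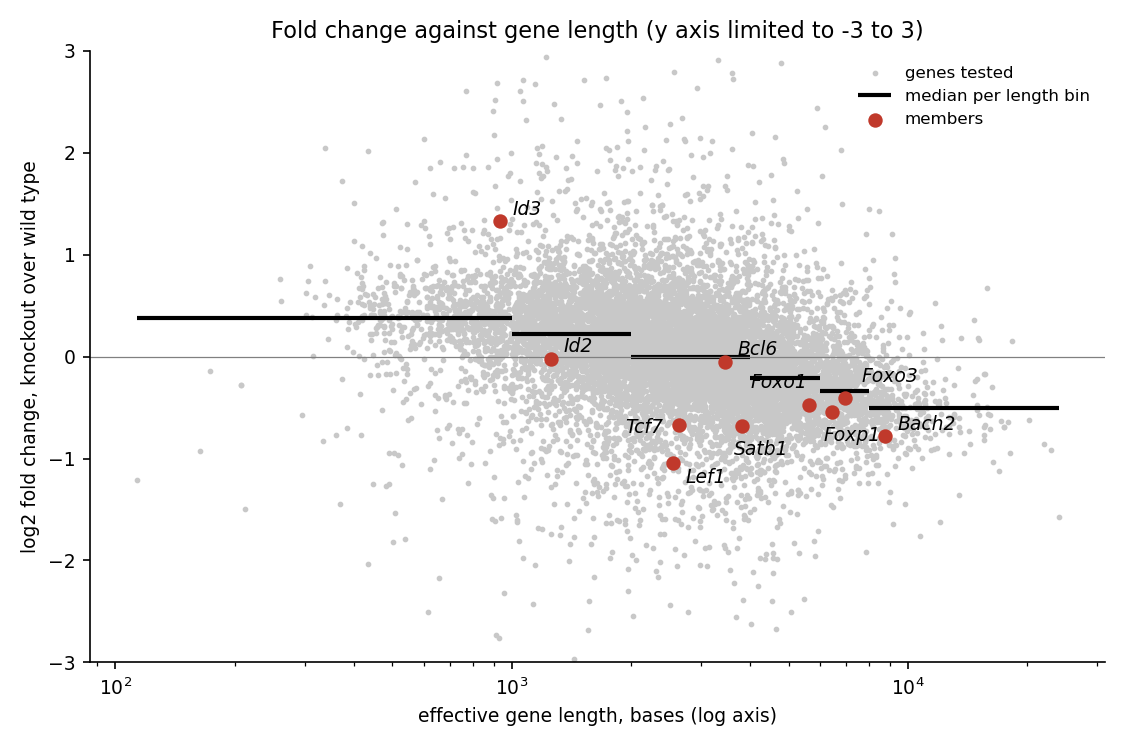
Log2 fold change, knockout over wild type, against effective gene length in bases on a log axis, for the genes tested that have a length (grey), the members (red) and the median of each length bin (black bars). Bach2, Foxo1, Foxo3 and Foxp1 lie near or below falling medians of long genes, whereas Lef1 at -1.04 and Id3 at 1.33 lie far from the medians of their bins, 0 and 0.38.

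**Figure D3:**
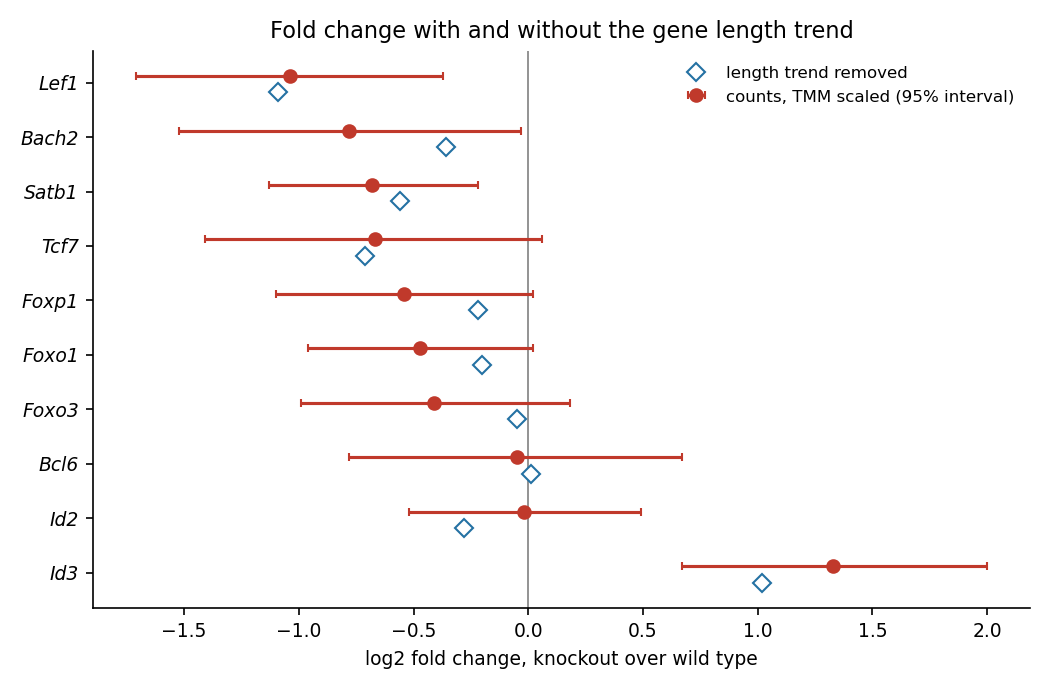
Log2 fold change of each member, knockout over wild type, from TMM-scaled counts with its 95% interval (red) and with the length trend removed (open diamonds). Lef1 (-1.04 and -1.09) and Tcf7 (-0.67 and -0.71) differ little between both, whereas Foxo3 goes to -0.05 and Foxp1 to -0.22.

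The proteins that work with the members were read from the same fit. Of the FOXO target genes all 16 tested had a negative fitted log2 fold change, where 50.2% of all genes tested did. For 10 of them the knockout pair lay wholly below the wild type pair, where 24.3% of all genes did. The median log2 fold change of the 16 was -0.64, or -0.58 with the length trend removed, beside 0 over all genes in both fits. At an unadjusted edgeR p under 0.05, 6 were lower, against 5.73% of all genes, and 0 higher, against 6.23%. In edgeR 0 passed over all genes, and DESeq2 called 4 lower, where it called 0.804% of genes lower. The count of 6 rose without knockout replicate 9 or wild type replicate 1, and fell without knockout replicate 12 or wild type replicate 6. The shares of all genes in those fits were not counted. S1pr1, the receptor for exit from lymphoid organs, had 51.6 and 45.3 CPM in knockout, against 98.1 and 144 CPM in wild type libraries (log2 -1.32, SE 0.25). Il7r, the survival receptor of naive cells, singled out after its values were seen, overlapped at 313 and 167 CPM against 213 and 322 CPM. FOXO factors are not the only regulators of these genes.

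Of 19 genes of PI3K and AKT input to FOXO, 17 were negative (median -0.30, or -0.07 with the length trend removed), with 3 lower and 0 higher at an unadjusted p under 0.05 and 0 passing over all genes in edgeR or DESeq2. The count of lower genes rose without knockout replicate 9 and fell without any other library. The phosphatase gene Inpp4b stood at 151 and 71.8 CPM in knockout and 189 and 306 CPM in wild type libraries, and Pik3ip1, an inhibitor of PI3K, at 15.1 and 10.8 against 18.1 and 29.9 CPM. On the other side, the kinase gene Akt1 stood at 221 and 255 CPM against 204 and 149 CPM (a log2 fold change of 0.43, SE 0.24), and the 14-3-3 protein gene Ywhaz at 872 and 940 against 841 and 653 CPM (a log2 fold change of 0.28, SE 0.22).

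Of 19 tested genes among the TCF partners and the Wnt pathway, 12 were negative (median -0.15). At an unadjusted p under 0.05 there were 4 lower and 1 higher, and 0 passed over all genes in either tool. The 4 became 2 with the length trend removed, where 5.36% of all genes were lower. Fewer were lower without knockout replicate 12, wild type replicate 1 or wild type replicate 6. The 1 higher was lost without knockout replicate 12 or wild type replicate 6. The TLE corepressor gene Tle4 stood at 25.7 and 19.6 CPM in knockout and 34.5 and 38.4 CPM in wild type libraries, and Bcl9, which bridges beta-catenin to its coactivators, at 26.0 and 27.6 against 44.3 and 40.5 CPM. Axin2, a Wnt target gene singled out after its values were seen, stood at 10.6 and 12.9 against 20.6 and 17.9 CPM (a log2 fold change of -0.71, SE 0.26). Ctnnb1, which encodes beta-catenin and was also singled out afterwards, had a log2 fold change of -0.15 (SE 0.20). The deacetylase gene Hdac2 was the 1 higher, at 114 and 133 against 88.0 and 65.3 CPM, and the corepressor gene Tle1 stood at 8.81 and 8.46 against 6.00 and 5.66 CPM.

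On the list of E proteins, which ID2 and ID3 block, and of genes related to them, no gene passed an adjusted p of 0.05 in edgeR with all 4 libraries. Of 6 tested genes of that list 3 were negative, with 0 in either direction at an unadjusted p under 0.05 in edgeR and 0 passing in DESeq2. These edgeR counts did not all stay the same when a library was left out. Tcf3, which encodes E2A, stood at 190 and 172 CPM in knockout and 212 and 219 CPM in wild type libraries (log2 -0.25, SE 0.21), and Tcf12, which encodes HEB, at 115 and 63.1 against 109 and 159 CPM. The partner genes Lyl1 (log2 0.43, SE 0.41) and Lmo2 (0.42, SE 0.46) overlapped between groups.

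Of 15 partners and targets of BCL6 and BACH2, 9 were negative (median -0.17), with 2 lower and 0 higher at an unadjusted p under 0.05 and 0 passing in edgeR or DESeq2. The 2 became 1 with the length trend removed, where 5.36% of all genes were lower. The count also fell without knockout replicate 12, and rose without any other library. The 2 were Bach1, the relative of Bach2, at 12.2 and 7.38 against 19.5 and 20.1 CPM, and Zbtb16, at 0.522 and 1.34 against 3.30 and 3.79 CPM. The small MAF genes Mafk (log2 0.21, SE 0.26) and Mafg (0.18, SE 0.24) overlapped. Prdm1, the effector factor that both repressors hold down, was singled out after its values were seen. It was not higher, at 72.4 and 47.0 CPM in knockout and 112 and 56.7 CPM in wild type libraries.

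Of 23 other quiescence and naive T cell factors, 22 were negative (median -0.43, or -0.24 with the length trend removed), with 7 lower and 0 higher at an unadjusted p under 0.05. The count of 7 rose without knockout replicate 9 and fell without any other library. Over all genes 0 passed in edgeR, and DESeq2 called 1 lower, Bcl11b. Bcl11b, which guards T cell identity, stood at 76.5 and 61.7 CPM in knockout and 148 and 168 CPM in wild type libraries (log2 -1.20, SE 0.23, edgeR adjusted p 0.261), and Zfp36l1, which promotes decay of mRNAs, at 231 and 183 against 327 and 396 CPM. Myb, the 1 gene not below 0, spread widely, at 102 and 37.3 against 55.3 and 83.8 CPM. Of 18 effector T cell factors, 8 were negative (median 0.17). In edgeR 3 were higher and 1 lower at an unadjusted p under 0.05, and 0 passed over all genes. With the length trend removed the 3 became 4 and the 1 stayed 1. DESeq2 called 1 higher, Eomes, and 1 lower, Ikzf3. Ikzf3, which encodes Aiolos, stood at 223 and 156 CPM in knockout and 581 and 489 CPM in wild type libraries (log2 -1.50, SE 0.25, edgeR adjusted p 0.238), without overlap. The AP-1 factor gene Batf3 stood at 15.4 and 17.9 against 7.47 and 6.93 CPM (a log2 fold change of 1.21, SE 0.27) and the factor gene Maf at 35.9 and 51.2 against 86.9 and 51.5 CPM (a log2 fold change of -0.67, SE 0.31). In bulk libraries, fewer cells of a type and less RNA per cell cannot be told apart. These lists were chosen with earlier results of the data known. Their counts describe them beside the 6.23% of all genes higher and 5.73% lower at an unadjusted edgeR p under 0.05, with all 4 libraries. The shares of all genes with a library left out were not counted. How the list counts moved in those fits is therefore no result about the lists. Over all genes, 50.2% had a negative log2 fold change.

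**Figure D4:**
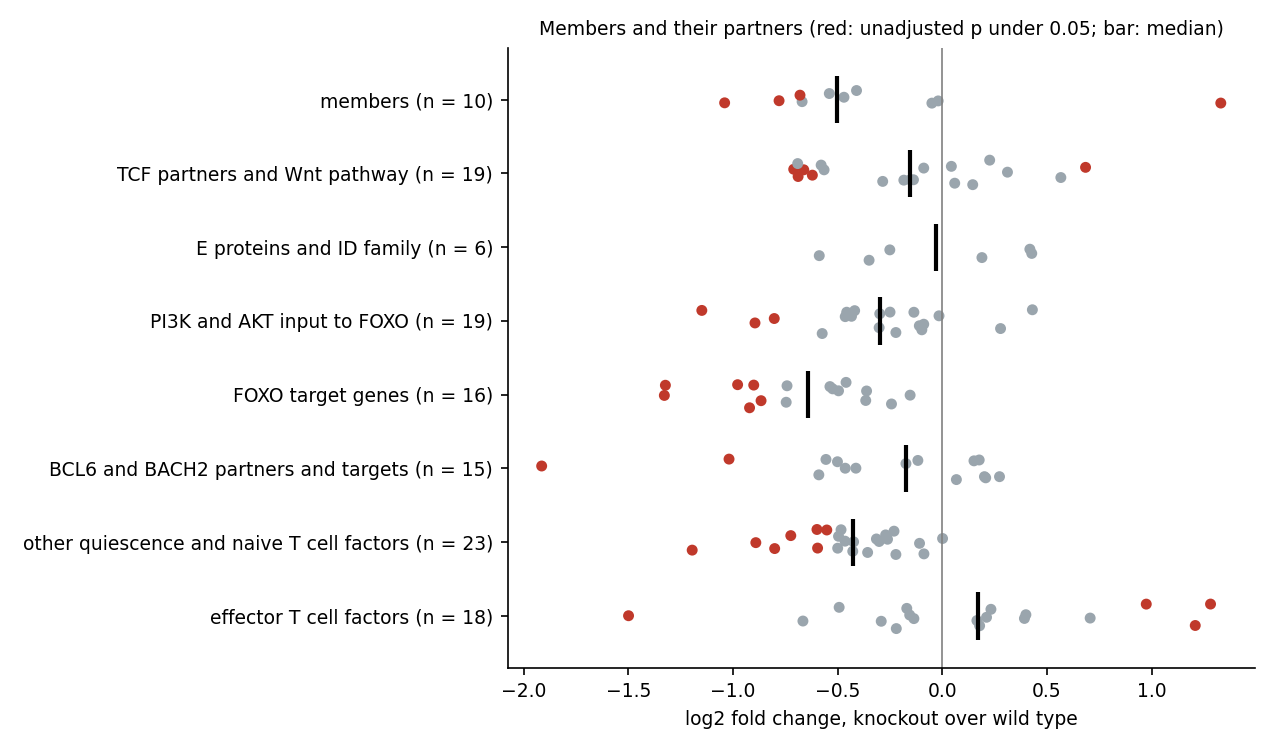
Log2 fold change, knockout over wild type, of each tested gene of the members and of 7 lists of partners, with red points at an unadjusted edgeR p under 0.05 and a black bar at each median. The FOXO targets (median -0.64) and the other quiescence factors (-0.43) lie mostly below 0, and the effector factors (0.17) lie on both sides.

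Among 8890 other genes with a mean of at least 10 CPM, those whose profile over the 4 libraries was nearest to Lef1, by Euclidean distance of log2 CPM centred on its mean, were Prrt2 (distance 0.09), Trp53inp1 (0.129) and Tcp11l2 (0.138). Trp53inp1 stood at 129 and 83.1 CPM in knockout and 173 and 279 CPM in wild type libraries. Nearest to Id3 were Ermn (0.187), Fasl (0.222), the gene of the death ligand FasL, and Gabarapl1 (0.237), with Fasl at 20.8 and 19.2 CPM in knockout and 8.85 and 8.34 CPM in wild type libraries. With 4 libraries such likeness is a description.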

How the data were processed

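RNA-seq was made from 2 Setd2 knockout and 2 wild type libraries, from total RNA on an Illumina HiSeq platform, per the labels' protocols. Bowtie2 and RSEM were used, with GRCm38.p6 and mm10 as builds, per the submitters' processing notes, which name no versions. The deposited table gave an expected count per gene and library, made by the authors, and an expression value of unstated unit. It was taken as FPKM, made by the authors, since gene lengths worked back from it were a median 0.998 times the annotated transcript length over 268 genes. Its 4 group average columns were left out. Of the gene IDs, 99.3% matched RefSeq. No label says the replicates were separate animals, and all pairs of libraries differed beyond sampling noise (chi-square per degree of freedom 30.4 to 162).

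Expected counts were rounded, filtered with filterByExpr (minimum count 10), scaled by TMM and tested with edgeR 4.0.16 (quasi-likelihood, robust, two-sided, Benjamini-Hochberg, threshold 0.05) in R 4.3.3. The common dispersion was 0.0678 with 2 residual degrees of freedom. The SE came from the F statistic. Alternatives were other scalings and filters, DESeq2 1.42.0, limma-voom 3.58.1, limma on log2(FPKM + 1), removal of a lowess trend (span 0.3) on effective length, and leaving out each library. The test was checked on simulated data. Members, lists and tests were chosen with earlier results of these data known. Named genes are the members, Setd2, the called genes of each list and the 2 of smallest edgeR p in each direction, and the 3 nearest profiles to Lef1 and Id3; 1 gene so named is not reported here.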

Additional observations from a re-analysis of the deposited data

How the results depend on the processing

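All 15 alternatives kept the sign of Lef1, Tcf7, Satb1, Bach2, Foxo1, Foxo3, Foxp1 and Id3. The log2 fold change of Id3 ran from 1.02 to 1.40, of Satb1 from -0.77 to -0.56, of Lef1 from -1.39 to -0.77 and of Tcf7 from -1.01 to -0.21. Members near 0 turned, with Bcl6 at 0.01 with the length trend removed and between -0.33 and 0.24 over the fits with a library left out (0.17 when this was knockout replicate 12, 0.24 when it was wild type replicate 6). Id2 lay between -0.18 and 0.12 over those fits (0.12 when knockout replicate 9 was left out, 0.09 when wild type replicate 1 was). With the length trend removed Id2 stood at -0.28. The adjusted p ran from 0.0306 to 0.984 for Lef1 and from 0.0391 to 0.843 for Id3, and DESeq2 was the 1 setting that called members, 1 higher and 1 lower. Over all genes edgeR called 1 higher and 0 lower. DESeq2 called 88 and 97, edgeR without a filter 48 and 33, and FPKM without a filter 0 higher. With a library left out the calls ran from 0 to 113 higher and 0 to 81 lower, 6 and 2 when it was knockout replicate 9, 0 and 0 for knockout replicate 12, 113 and 81 for wild type replicate 1, and 31 and 14 for wild type replicate 6. Of the partner and pathway genes edgeR called 0, DESeq2 1 higher and 6 lower, and edgeR without a filter 1 higher and 3 lower, and with a library left out 0 to 4 were lower, with 4 without wild type replicate 1. The cause was not tested. Members lower at an unadjusted p numbered 3, and 2 to 6 over the alternatives that kept all 4 libraries. Of these alternatives, the share of all genes lower at an unadjusted p was counted only with the length trend removed. No paired analysis was possible because the replicate numbers 9 and 12 and the numbers 1 and 6 are not shared between the groups. Depth limits Id3 and Bcl6 most, which rest on 101 to 298 counts a library.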

Other observations

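The members differed within groups as well as between them. Knockout replicate 9 stood above knockout replicate 12 for 7 of 10 members, with a median CPM ratio of 1.24, where that ratio over all genes had a median of 0.998. Wild type replicate 6 stood above wild type replicate 1 for 8 members, with a median ratio of 1.39, against 0.994 over all genes. Bach2 differed 1.67-fold between the knockout libraries and Tcf7 1.75-fold between the wild type libraries. For Satb1 the same ratios were 0.926 in knockout and 0.947 in wild type cells, and for Id3 0.968 in knockout and 1.09 in wild type cells. The ratio of Bcl6 to Bach2 in FPKM was 0.264 and 0.329 in knockout and 0.182 and 0.169 in wild type libraries, without overlap, although Bcl6 itself overlapped. This ratio was not corrected for the length trend, and Bach2 (8778 bases) is longer than Bcl6 (3463 bases). With that trend removed, the log2 fold change went from -0.78 to -0.36 for Bach2 and from -0.05 to 0.01 for Bcl6.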
